A study of Mus musculus with 8 samples.

Results

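The genes described here build and acidify lysosomes and release their contents: membrane proteins of the lysosome, its hydrolases, the vacuolar proton pump, and the tethering and fusion factors that bring lytic granules to the cell surface. They were taken by symbol from a list of 53 names, of which 52 stood among the 22609 gene rows of every count table. The remaining name, Tfeb, is listed under its older symbol Tcfeb and is given separately. Of the 52 members, 47 had enough reads to enter the test over 10073 genes.

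The study sequenced RNA of sorted mouse liver CD8 T cells, as 4 CD11c+ and 4 CD11c- libraries. All cells came from male C57BL/6J animals, 6 weeks of age. On day 0, day 3 and day 6 these had been given αCD137, an antibody that binds a T cell costimulatory molecule, and the liver was taken on day 8. Both subsets were live, CD45+, TCRβ+, CD8α+ and KLRG1+, and lacked MHCII, NK1.1, CD4 and CD127, and the gates differed by surface CD11c. Animals without the antibody, and other organs, were not analysed here. The labels give 4 per group but do not say that each library came from a separate mouse, so p-values here reflect how far these libraries scatter, and that scatter may be technical.

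Lysosomes are acidic organelles in which hydrolases break down protein, lipid and sugar chains. The vacuolar proton pump consists of a membrane sector, V0, through which protons pass, and a cytosolic sector, V1, which splits ATP. In cytotoxic T cells a modified lysosome, the lytic granule, stores perforin and granzymes, and it is emptied at the contact with a target cell by a chain of factors that includes Rab27a, Munc13-4 (Unc13d), syntaxin 11 (Stx11) and Munc18-2 (Stxbp2). Inherited loss of these release factors causes familial haemophagocytic syndromes in people.

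Many lysosomal genes are known to carry the palindrome TCACGTGA near their start, a letter pattern recognised by the factor TFEB and its relatives. RefSeq promoter windows (build GRCm38.p6, from 250 bases before the start to 50 after it) were matched by symbol for 41 of the 52 members. TCACGTGA stood in the windows of 6 of these 41 (14.6%), against 1.12% of 27025 genes in the same table. Its core CACGTG, which every TCACGTGA contains, stood in 13 of the 41 (31.7%), against 8.09%. Each pattern is its own reverse complement, so a search of 1 strand covers both. The 6 members with TCACGTGA were the calcium channel gene Mcoln1, the hydrolases Ctsa and Ctsd, and the pump subunits Atp6v0d1, Atp6v0e and Atp6v1a. None of the 11 granule release genes with a window held it, and 2 of them, Rab27a and Stxbp2, held the core. A match of letters is a description of the window and not of a bound factor. The stretches below show how the pattern lies in a channel, a hydrolase and a pump gene, and in Lamp1, whose stretch holds the core 4 times. They are written 5′ to 3′ on the gene's own strand, and capitals mark TCACGTGA in the first 3 and CACGTG in Lamp1. They lie at chr8:3500427-3500526 (plus strand) for Mcoln1, chr7:142387873-142387972 (minus strand) for Ctsd, chr16:44139338-44139437 (minus strand) for Atp6v1a and chr8:13159076-13159175 (plus strand) for Lamp1.
Mcoln1: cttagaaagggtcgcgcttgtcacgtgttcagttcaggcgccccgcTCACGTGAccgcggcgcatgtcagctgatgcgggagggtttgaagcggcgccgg
Ctsd: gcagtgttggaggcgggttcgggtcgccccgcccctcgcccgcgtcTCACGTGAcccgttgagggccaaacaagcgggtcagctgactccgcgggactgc
Atp6v1a: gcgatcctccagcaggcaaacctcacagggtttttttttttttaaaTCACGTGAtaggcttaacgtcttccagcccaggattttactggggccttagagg
Lamp1: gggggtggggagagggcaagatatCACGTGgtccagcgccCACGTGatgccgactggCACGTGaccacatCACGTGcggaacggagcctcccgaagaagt

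Levels below are gene counts scaled to the usual CPM unit and between libraries, and they compare libraries for the same gene. The gene reads per library ranged from 5090345 to 7093163. The sort was visible in Itgax, the gene of CD11c, with 243 ± 76.4 CPM in the CD11c+ and 10.1 ± 5.64 CPM in the CD11c- group (SD, n = 4 each; log2 difference 4.60, adjusted p = 0.000136 by edgeR). The 8 genes listed for CD8 T cells summed to 8566 to 10161 CPM in CD11c+ and 8784 to 9442 in CD11c- libraries. They include Ptprc, the gene of CD45, which other leukocytes share and which stood at 2104 to 2815 CPM. Other blood and liver cells also carry many lysosomal transcripts, so their markers were summed in each library. The 16 monocyte and Kupffer cell markers summed to 105 to 446 CPM in CD11c+ and 102 to 236 in CD11c- libraries, highest in CD11c+ replicate 3. All 16 had reads in some library, but Clec4f, Marco, Timd4 and Mrc1 only in CD11c+ replicate 4. Lyz2 and Cd68 had the highest means of them, at 115 and 63.5 CPM in CD11c+ and 82.5 and 56.2 CPM in CD11c- libraries. The 11 dendritic cell markers summed to 110.5 to 308 against 56.8 to 143 CPM, also with the highest value in CD11c+ replicate 3. All 11 had reads in some library, but Flt3 only in CD11c+ replicate 3. Cd74 had the highest mean of them, at 81.0 CPM in CD11c+ and 38.7 CPM in CD11c- libraries. H2-Ab1 (51.3 against 19.8 CPM), H2-Aa (31.8 against 10.5) and H2-Eb1 (27.0 against 10.0) also had higher means in CD11c+. These 4 were the dendritic markers tested, all at an unadjusted p under 0.05 by edgeR (background 2.43%), with adjusted p from 0.923 to 0.991. Among the untested ones, Zbtb46 went the other way, at 1.21 against 1.60 CPM. Of 5 neutrophil markers matched, Mpo and Elane were at 0 in every library, and the 5 summed to 2.27 to 272 against 6.16 to 100.4 CPM. Hepatocyte markers summed to at most 38.2 CPM and endothelial markers to at most 1.09, B cell markers to at most 14.8 and NK cell markers to at most 24.8. The part of these cells in the member levels was not tested.

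No member passed the test between the subsets. By edgeR's quasi-likelihood test with Benjamini-Hochberg adjustment over all genes tested, 0 of 47 members had an adjusted p under 0.05, where 0.0496% of all genes tested did, and the members' adjusted p lay between 0.99 and 0.999. DESeq2 and limma voom also called 0 members. At an unadjusted p under 0.05 there were 5 members (10.6%, against 4.7% of all genes tested): Gaa and Lyst with higher means in CD11c+ (background 2.43%), and Rab27a, Stx11 and Vamp8 with lower means (background 2.26%). The median log2 difference was -0.03 over the 47 members and 0.01 over all genes tested, with 22 members above 0 and 25 below. For 27 members (57.4%) the 95% interval of the difference lay within 1.5-fold either way, as it did for 29.3% of all genes, and for 42 (89.4%) within 2-fold, against 60.8%. Members and all genes were not matched for read level, on which the width of an interval depends. In bulk RNA, fewer cells carrying a transcript and less transcript per cell cannot be told apart.

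**Figure D1:**
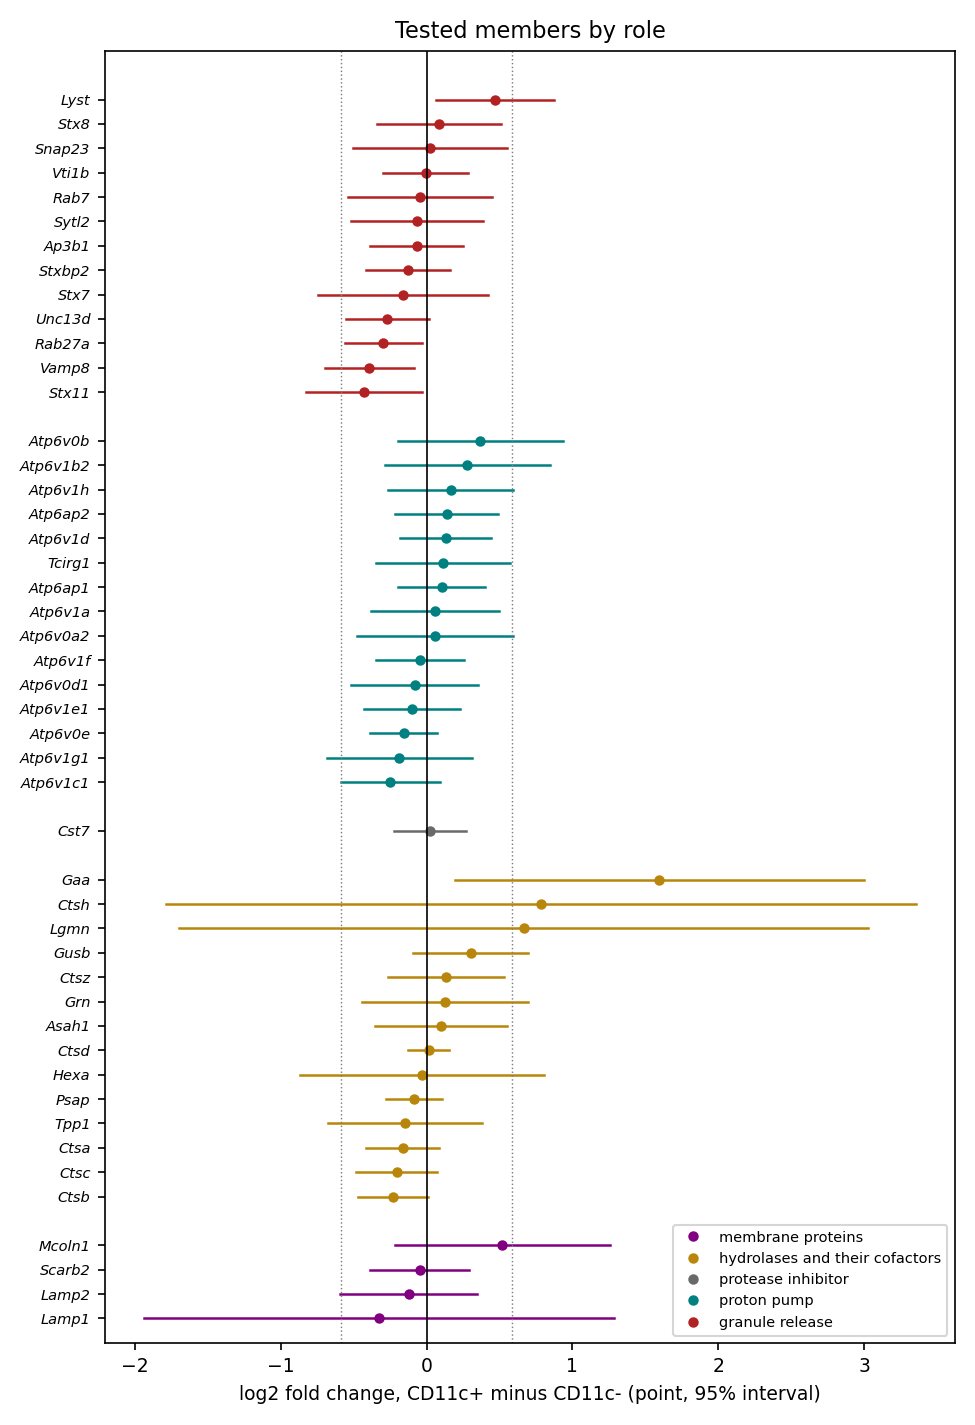
Log2 difference CD11c+ minus CD11c- (horizontal axis) for each of the 47 members tested, grouped by role, with 95% intervals from edgeR; dotted lines mark 1.5-fold either way. Points of the hydrolases and the proton pump lie on both sides of 0, while 10 of the 13 granule release genes lie below it. Over all 10073 genes tested, 4866 lay below 0.

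Among the 14 granule release genes, 13 were tested, and 10 of these had a lower mean in CD11c+ libraries (median log2 difference -0.07). Over all 10073 genes tested, 4866 had a log2 difference below 0. Of the 10, Rab7, Stx7, Vti1b and Sytl2 changed sign when single libraries were left out. Snap23, which was above 0, did so too. At an unadjusted p under 0.05 stood 4 of the 13 (30.8%, against 4.7% of all genes), and none passed the adjusted threshold. The count of 4 depended on single libraries and was 5 with the replicate number as a block or without a filter on low counts. It was 2 without CD11c+ replicate 3, 1 without CD11c- replicate 1 and 2 without CD11c- replicate 2. It was 1 when the 3 libraries of lowest gene detection (CD11c+ replicates 1 and 2 and CD11c- replicate 1) were left out. All 13 intervals lay within 2-fold, and 9 within 1.5-fold.

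Rab27a encodes the small GTPase that holds granules at the plasma membrane. Its level was 131, 141, 119.9 and 141 CPM in CD11c+ replicates 1 to 4 and 177, 165, 157 and 157 CPM in CD11c- replicates 1 to 4. Every CD11c+ library thus lay below every CD11c- library. The means were 133 ± 10.1 and 164 ± 9.32 CPM (SD, n = 4 each), a log2 difference of -0.30 (SE 0.12, adjusted p = 0.991 by edgeR). Leaving out the 3 libraries of lowest gene detection gave -0.30 again.

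Unc13d encodes Munc13-4, the priming factor that Rab27a recruits. It stood at 317, 308, 219 and 283 CPM in CD11c+ libraries and at 337, 319.9, 324 and 377 CPM in CD11c- libraries. The groups did not overlap, the lowest library being CD11c+ replicate 3. The log2 difference was -0.27 (SE 0.13, adjusted p = 0.991 by edgeR), -0.17 without that library and -0.45 without the 3 libraries of lowest gene detection. Among all members tested, 3 of 47 (6.38%) had groups that did not overlap, against 3.44% of all genes: Rab27a and Unc13d with CD11c+ lower (background 1.85%) and Lyst with CD11c+ higher (background 1.6%).

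Vamp8 encodes an R-SNARE of late endosomes and secretory granules. Its CD11c+ libraries held 213, 266, 341 and 280.4 CPM and its CD11c- libraries 357, 405, 338 and 345 CPM. The groups overlapped at 1 library, CD11c+ replicate 3, which exceeded the lowest CD11c- value. The log2 difference was -0.39 (SE 0.14, adjusted p = 0.99 by edgeR), and -0.23 without the 3 libraries of lowest gene detection.

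Stx11 encodes syntaxin 11, the Q-SNARE with which granules fuse at the plasma membrane. Its levels were 89.9, 124, 99.9 and 113 CPM in CD11c+ and 184, 154, 103 and 134 CPM in CD11c- libraries. CD11c- replicates 1, 2 and 4 were above every CD11c+ library, and CD11c- replicate 3 lay among them. The log2 difference was -0.43 (SE 0.18, adjusted p = 0.991 by edgeR), and -0.30 without CD11c- replicate 1. Stxbp2, whose product Munc18-2 chaperones syntaxin 11, overlapped between the subsets at 154, 199, 151 and 178 CPM against 199, 177, 170.0 and 201 CPM, with a log2 difference of -0.13 (SE 0.13).

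Lyst encodes a large protein that limits the size of lysosomes and granules, and its loss causes Chediak-Higashi syndrome. In contrast to the release factors above, its CD11c+ libraries were all higher, at 63.3, 81.5, 62.2 and 57.1 CPM against 43.8, 55.7, 45.7 and 45.6 CPM. The means were 66.0 ± 10.7 and 47.7 ± 5.42 CPM (SD, n = 4 each), with a log2 difference of 0.47 (SE 0.19, adjusted p = 0.991 by edgeR). It was 0.27 without the 3 libraries of lowest gene detection.

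**Figure D2:**
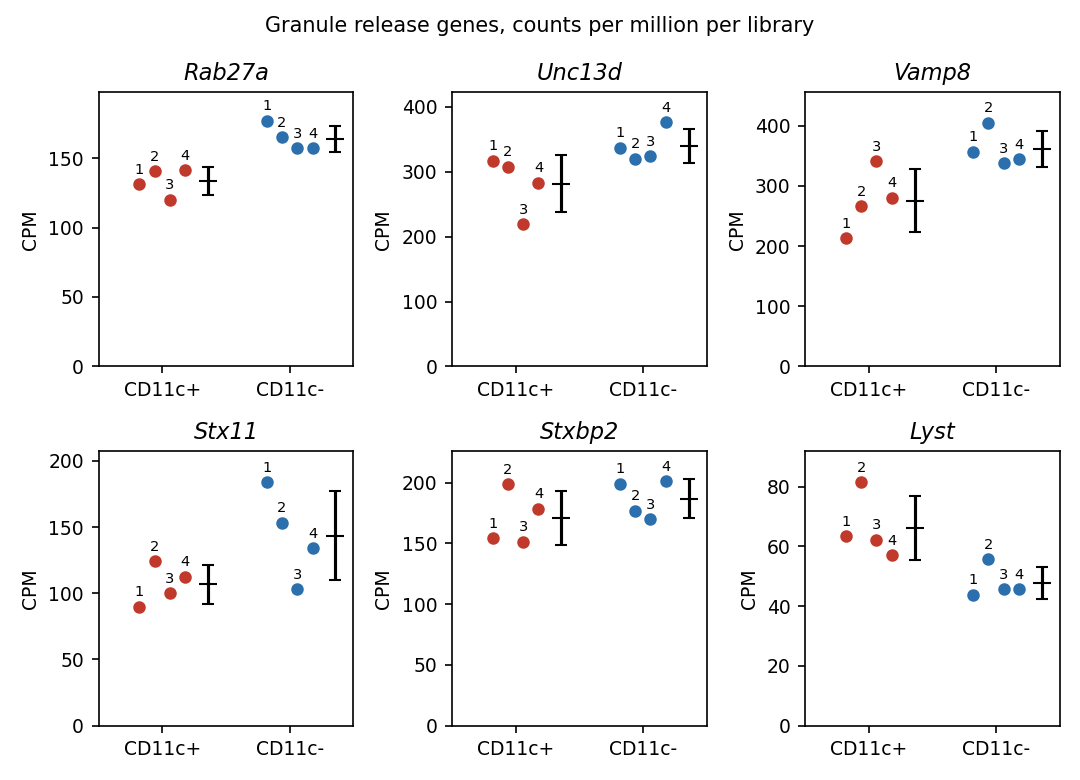
CPM in each library (digits are replicate numbers) of granule release genes in CD11c+ and CD11c- cells, with the mean and SD of 4 libraries as bars. The CD11c+ libraries of Rab27a and Unc13d lie below all CD11c- libraries, those of Lyst lie above them, and those of Vamp8, Stx11 and Stxbp2 overlap with them.

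Of the other granule release genes tested, Rab7, the GTPase of late endosomes, the SNAREs Stx7, Stx8, Vti1b and Snap23, the adaptor subunit Ap3b1 and the Rab27a effector Sytl2 had log2 differences between -0.16 (Stx7, SE 0.27) and 0.08 (Stx8, SE 0.20). Vti1b had the smallest difference of them, -0.01 (SE 0.14), at 90.6 to 113 CPM in CD11c+ and 97.4 to 105 CPM in CD11c- libraries. Vamp7, another R-SNARE of lysosomes, had 0 reads in all 8 libraries, a count that allows up to 0.42 to 0.587 CPM per library (3 reads, counting error only). The annotation used for counting is not given, and whether Vamp7 was transcribed despite the 0 reads was not tested.

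The 17 listed genes of the vacuolar proton pump and its accessory proteins gave 15 tested members, and none had an unadjusted p under 0.05. Of the 15, 9 had a higher mean in CD11c+ and 6 a lower mean, with a median log2 difference of 0.06 and a range from -0.25 (Atp6v1c1, SE 0.16) to 0.37 (Atp6v0b, SE 0.26). Both ends moved with the libraries: Atp6v0b was at 0.19 without CD11c+ replicate 3 and Atp6v1c1 at -0.15 without CD11c- replicate 1. All 15 intervals lay within 2-fold either way and 9 within 1.5-fold. Without the 3 libraries of lowest gene detection the median was -0.03.

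Of the V0 sector, Atp6v0e, a small membrane subunit, was among the most read pump genes, at 237, 276, 271 and 271 CPM in CD11c+ and 313, 273, 293 and 299 CPM in CD11c- libraries. The groups overlapped only in that CD11c+ replicate 2 exceeded CD11c- replicate 2. The log2 difference was -0.16 (SE 0.11). Of the V1 sector, the Atp6v1f subunit stood at 189.8, 168, 221 and 169.6 CPM against 187, 173, 184 and 228 CPM, with a log2 difference of -0.05 (SE 0.14). The catalytic subunit Atp6v1a had 106 ± 19.7 against 102 ± 25.2 CPM (SD, n = 4 each), and the ATP-binding partner Atp6v1b2 had 142 ± 72.4 against 117 ± 7.58 CPM, where CD11c+ replicate 1 alone reached 249.9 CPM. The accessory proteins Atp6ap1 and Atp6ap2 had log2 differences of 0.10 (SE 0.14) and 0.14 (SE 0.16).

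The a subunit of V0, which steers the pump to its compartment, is encoded by several genes, and here 3 were listed. Tcirg1, the a3 form known from osteoclasts and activated T cells, was at 158, 142, 101 and 99.0 CPM in CD11c+ and 152, 82.1, 105 and 123 CPM in CD11c- libraries. Atp6v0a2, the a2 form known from the Golgi and endosomes, was at 158, 256, 118 and 222 CPM against 111, 197, 209 and 208 CPM. Both overlapped between the subsets, with log2 differences of 0.11 (SE 0.21) and 0.05 (SE 0.25). Atp6v0a1, the a1 form typical of neurons, had reads in 3 of 8 libraries, with 0, 0, 0 and 5 reads in CD11c+ and 12, 3, 0 and 0 in CD11c-, and was not tested. Set per kilobase of the longest coding transcript (an approximate scale, from a later annotation than the files' build), levels in CD11c+ libraries were 41.1 ± 9.78 CPM per kb for Tcirg1, 35.2 ± 11.6 for Atp6v0a2 and 0.0486 ± 0.0972 for Atp6v0a1 (SD, n = 4). Tcirg1 and Atp6v0a2 thus differed by less than their spread, and both stood far above Atp6v0a1. In CD11c- libraries the order was the same, at 38.0 ± 9.65, 33.9 ± 8.79 and 0.165 ± 0.265 CPM per kb.

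The hydrolases and their cofactors made up 15 members, 14 of them tested, with 8 means higher and 6 lower in CD11c+ (median log2 difference 0.06). At an unadjusted p under 0.05 stood 1 of the 14, Gaa (7.14%, against 4.7% of all genes). Ctsd, the aspartic protease cathepsin D, had the most reads of any member, at 2632, 2522, 2565 and 2490.2 CPM in CD11c+ and 2486, 2449, 2601 and 2568 CPM in CD11c- libraries. All 8 libraries lay close together, and the log2 difference was 0.02 (SE 0.07) with a 95% interval from 0.916-fold to 1.11-fold. Psap, which gives rise to the saposins that present lipids to hydrolases, was nearly as even, at 635, 723, 742 and 709.6 CPM against 729.5, 722, 794 and 737 CPM (log2 difference -0.09, SE 0.09).

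Ctsb, the cysteine protease cathepsin B, was at 396, 479, 444 and 455 CPM in CD11c+ and 552, 561, 528 and 437 CPM in CD11c- libraries. CD11c- replicates 1 to 3 lay above every CD11c+ library and replicate 4 among them (log2 difference -0.23, SE 0.11). Ctsc, the dipeptidase that removes the propeptide of granzymes, was at 239, 278, 236 and 253 CPM against 251, 319, 337 and 255 CPM, with overlapping groups (log2 difference -0.21, SE 0.13). Cst7, which encodes cystatin F, an inhibitor that acts on Ctsc, was at 421, 487, 517 and 519.6 CPM against 450.3, 560.1, 441 and 467 CPM (log2 difference 0.02, SE 0.11). Neither the activating protease nor its inhibitor separated the subsets.

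Gaa, the acid glucosidase that degrades glycogen, had the widest log2 difference of the members tested. It was at 49.9, 60.6, 10.2 and 21.2 CPM in CD11c+ and 1.3, 17.2, 16 and 12.2 CPM in CD11c- libraries. CD11c+ replicates 1 and 2 were high and CD11c- replicate 1 was low, whereas the other libraries overlapped. The log2 difference was 1.60 (SE 0.65, adjusted p = 0.991 by edgeR). It was 0.05 without those 3 libraries, which are the 3 in which the fewest genes had reads, and 0.85 by limma voom with quality weights.

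The remaining hydrolases tested (Ctsa, Ctsh, Ctsz, Hexa, Gusb, Asah1, Grn, Lgmn and Tpp1) had log2 differences from -0.17 (Ctsa, SE 0.12) to 0.79 (Ctsh, SE 1.19). Ctsh and Lgmn, proteases typical of antigen-presenting cells, were at or below 6.77 and 5.92 CPM with a library at 0 each. Ctsl, cathepsin L, was not tested and had 1, 13, 21 and 8 reads in CD11c+ and 1, 18, 7 and 0 in CD11c- libraries. The highest Ctsh and Ctsl values stood in CD11c+ replicate 3, the library with the highest monocyte, dendritic and neutrophil marker sums, whereas Lgmn was highest in CD11c+ replicate 4, at 5.92 against 4.28 CPM in replicate 3. The part of those cells was not tested.

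Of the lysosomal membrane proteins, Lamp1, whose product appears on the surface of degranulating cells, varied more between libraries than between subsets. It stood at 50.1, 8.9, 19.8 and 82.9 CPM in CD11c+ replicates 1 to 4 and at 57.9, 7.14, 19.8 and 119 CPM in CD11c- replicates 1 to 4. The highest library was 16.6 times the lowest, yet libraries with the same number were within 1.43-fold of each other across the subsets. The log2 difference was -0.33 with an SE of 0.74, and its sign turned under other settings, with 0.96 by limma voom with quality weights. With the replicate number as a block it was -0.13 with an SE of 0.21.

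**Figure D3:**
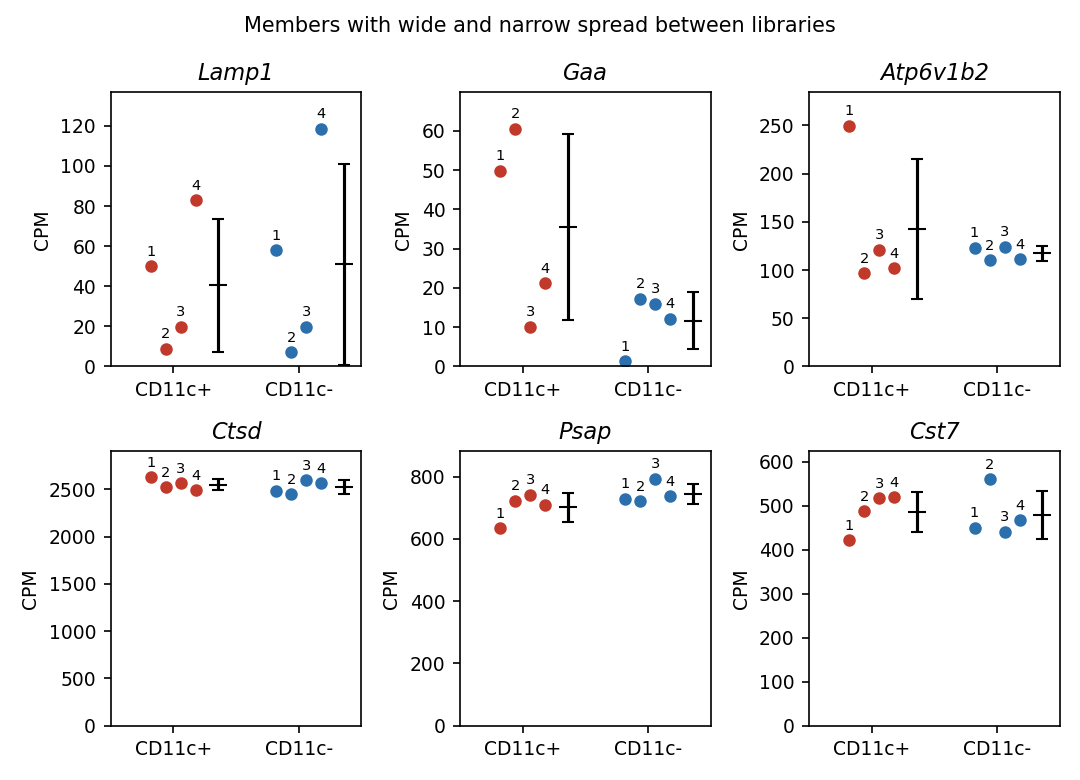
CPM in each library (digits are replicate numbers) of Lamp1, Gaa, Atp6v1b2, Ctsd, Psap and Cst7, chosen for wide or narrow spread, with the mean and SD of 4 libraries as bars. For Lamp1 the libraries with the same number stand at like heights in CD11c+ and CD11c- cells.

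Lamp2, the second abundant lysosomal membrane glycoprotein, was at 47.3, 97.6, 82.8 and 74.0 CPM against 80.2, 87.0, 95.2 and 66.6 CPM (log2 difference -0.12, SE 0.22). Scarb2, the receptor that carries glucocerebrosidase to lysosomes, was at 64.9, 72.8, 71.8 and 66.6 CPM against 64.2, 70.0, 72.6 and 78.6 CPM (log2 difference -0.05, SE 0.16). Mcoln1, the calcium channel TRPML1, was at 80.7, 74.0, 34.6 and 33.0 CPM against 58.7, 25.8, 36.9 and 33.8 CPM, with CD11c+ replicates 1 and 2 and CD11c- replicate 1 above the rest (log2 difference 0.52, SE 0.34). Without those 3 libraries the Mcoln1 difference was 0.065, and it ran from 0.28 to 0.78 when 1 library was left out. Lamp2, Scarb2 and Mcoln1 all overlapped between the subsets. The gene of TFEB, under the symbol Tcfeb, was at 15.8, 4.19, 37.4 and 16.2 CPM against 27.1, 21.8, 13.0 and 16.2 CPM (log2 difference -0.09, SE 0.51).

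Of the 5 members that were not tested, Cd63, a tetraspanin of lytic granules, had 0, 0, 3 and 0 reads in CD11c+ and 0, 0, 5 and 0 in CD11c- libraries. Atp6v0c, the proton-carrying ring subunit of V0, had 0, 0, 1 and 0 reads against 2, 1, 0 and 0. Reads placed at more than 1 site were not assigned to genes. Of all stretches of 50 bases, the read length, in the longest coding transcript, 36.5% for Cd63, 32.5% for Atp6v0c and 28.1% for Ctsl also stood in a transcript of another gene, while 27 of 51 members examined shared none. Vamp7 was not among those examined. Among the tested members the share was 36.6% for Ctsd, 19.2% for Atp6v1g1, 16.4% for Vti1b and 16.2% for Rab7. It was 15.8% for Ctsa, 15.4% for Ctsb, 12.6% for Atp6v1f, 10.8% for Atp6v0a2 and 10.6% for Hexa. The search did not use genome positions, so copies elsewhere and transcripts that overlap at the same place were not told apart. How far the levels of these genes are affected is therefore uncertain. The part of shared stretches in the low counts was not tested.

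A score was then taken in each library as the mean log2(CPM + 1) over a role's tested members, centred on its mean over the 8 libraries. Over all 47 members it ran from -0.07 to 0.06 in CD11c+ and from -0.08 to 0.08 in CD11c- libraries, so the subsets overlapped. The score of the 13 granule release genes was -0.11, -0.01, -0.09 and -0.01 in CD11c+ and 0.08, 0.06, 0.03 and 0.05 in CD11c- replicates 1 to 4. All 4 CD11c+ libraries lay below the CD11c- libraries, by 0.11 on average. This score averages the same values as the single release genes above, so it is a description and not separate evidence. How often other sets of genes split the libraries in this way was not examined. Summed levels of these genes were 1448 to 1545 against 1634 to 1774 CPM. The scores of the proton pump, the hydrolases and the membrane proteins overlapped.

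**Figure D4:**
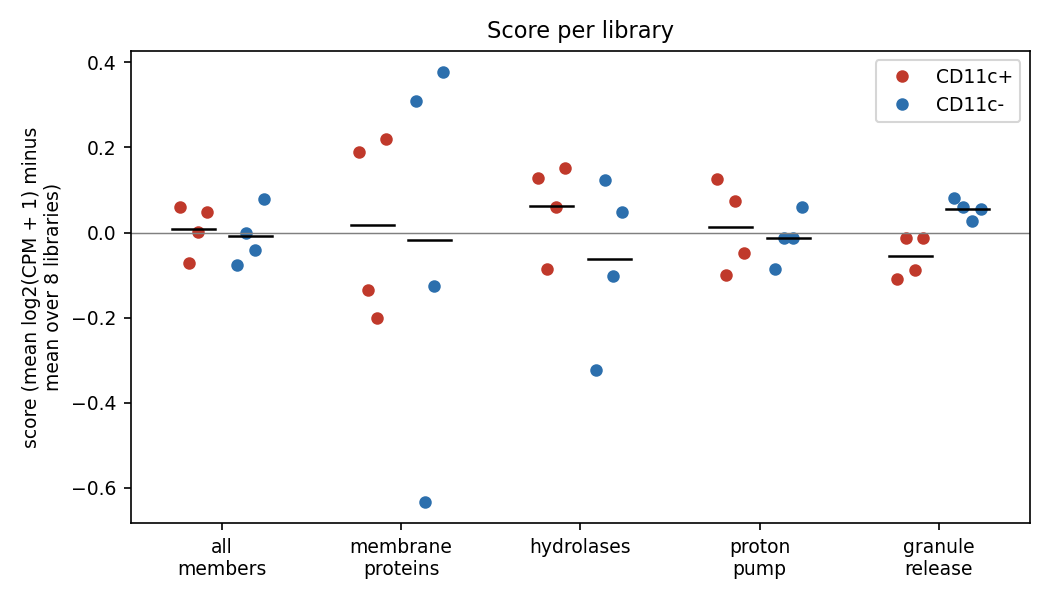
Score of each role in each library (vertical axis, mean log2(CPM + 1) centred on the 8 libraries), with 1 point per library and a line at the mean of 4 libraries. The granule release score is negative in all 4 CD11c+ and positive in all 4 CD11c- libraries, and the other roles overlap between the subsets.

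Further genes of these pathways were read from 6 lists, and none of their tested genes passed the adjusted threshold by edgeR. Of 48 other hydrolases and lysosome proteins tested, 3 had an unadjusted p under 0.05, all with lower means in CD11c+ (background 2.26%), with Ctss, cathepsin S, at 147 ± 25.9 against 192 ± 17.7 CPM (log2 difference -0.39, SE 0.15). None of 8 other pump subunits and assembly factors and none of 16 regulators and nutrient sensors stood at that level. Of 18 tethers and factors of lysosome movement 1 did (5.56%, against 4.7% of all genes). It was Vps39, a subunit of the HOPS tether, with a log2 difference of -0.52. Of 31 other exocytosis and granule biogenesis genes 2 did (6.45%, against 4.7% of all genes), Vamp3 at -0.51 and the Sec1/Munc18 gene Stxbp3a at -0.76. In that list 18 of 31 means were nonetheless higher in CD11c+ (median log2 difference 0.06). Its groups did not overlap for 3 genes (9.68%, against 3.44% of all genes). CD11c+ was higher for Nsf (0.39) and Hps6 (0.31), with a background of 1.6%, and lower for Stxbp3a, with a background of 1.85%. Groups also did not overlap for 1 of the 48 other hydrolases and lysosome proteins (2.08%, CD11c+ lower). The same held for 1 of 16 regulators (6.25%, CD11c+ higher), 1 of 18 tethers (5.56%, CD11c+ lower) and 0 of 8 pump genes.

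The granule cargo, tested for comparison with the release genes, had 5 of 7 genes at an unadjusted p under 0.05 (71.4%, against 4.7% of all genes). Of these, 4 had higher means in CD11c+ (background 2.43%) and 1 a lower mean (background 2.26%). Groups did not overlap for 3 of the 7 (42.9%, against 3.44% of all genes), all with CD11c+ higher (background 1.6%). The list was chosen with earlier results of these data known, so these shares are a description and not independent evidence. Gzmb, granzyme B, was at 1908 ± 389 in CD11c+ and 1064 ± 151 CPM in CD11c- libraries (SD, n = 4 each; log2 difference 0.84, SE 0.14), with an adjusted p of 0.0637 by edgeR. Gzmk, granzyme K, had a log2 difference of -0.22 (SE 0.09). Under 8 of the alternative analyses 1 to 3 cargo genes passed the adjusted threshold, whereas no release gene passed it under any. The difference between the cargo and the release genes was not tested.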

How the data were processed

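The authors deposited 1 table per library with raw read counts per gene symbol, without normalization. Per the submitters' processing notes, bcl2fastq, TopHat2 2.0.8b, HTSeq and mouse build mm9 were used, and per the labels' protocols libraries were made by SMART-seq2 and Nextera XT and sequenced as single reads of 50 bp. Neither the annotation nor whether counting used strand is given in the sources used here, so overlapping antisense genes cannot be told apart. The 5 summary rows of each table stayed out of library sizes and tests. They held 65.1% ± 1.66 of uniquely placed reads as outside genes (SD, n = 8), and alignments to more than 1 place made up 52.0% ± 1.07 of all rows. Detected genes ranged from 10482 to 12581 per library. No pair of libraries of a subset agreed within read sampling (lowest chi-square per degree of freedom 9.43).

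The 2 subsets were compared as CD11c+ minus CD11c- by the quasi-likelihood test of edgeR 4.0.16 (R 4.3.3) after filterByExpr and TMM scaling. P-values were adjusted by Benjamini-Hochberg over all 10073 genes, with a threshold of 0.05. CPM used TMM-scaled library sizes and means are given with the SD over 4 libraries. The score used a pseudocount of 1 CPM. Alternatives included DESeq2 1.42.0 and limma 3.58.1, and the fit was tested on simulated data. The members and all lists were chosen with earlier results of these data known. Values in each library are given for members at an unadjusted p under 0.05, the 3 with the highest mean in each role, and a short list of release, protease and pump genes. Lamp1 and, in a plot, Atp6v1b2 were added after their values were seen, for their spread, and reads are given for untested members. From each further list, the gene of smallest p in a direction was taken, and some of these are named. Protein sequences were not used here.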

Additional observations from a re-analysis of the deposited data

Results flagged for a closer look

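The levels of the 47 tested members and the 5 scores were searched in each subset for a library that stood apart from the other 3, by the gap to the nearest library over the whole range. The 5 untested members, with reads near 0, were not searched. A library stood apart in 5 of 104 groups of 4 libraries, none of them a score, and chance alone marks about 1 group in 20. In CD11c+ replicate 1, Hexa, a subunit of hexosaminidase, was at 47.1 CPM with the nearest library at 18.2, and the pump subunit Atp6v1b2 was at 249.9 CPM with the nearest at 121. The same library was low for the pump subunit Atp6v0e, at 237 CPM with the nearest at 271. In CD11c- replicate 1, Atp6v0a2 was at 111 CPM with the nearest library at 197. In CD11c- replicate 2, Lyst was at 55.7 CPM with the nearest at 45.7. CD11c+ replicate 1 and CD11c- replicate 1 are among the 3 libraries of lowest gene detection, at 10482 and 10783. The part of that in these values was not tested.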

How the results depend on the processing

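No member passed an adjusted p of 0.05 under any alternative run, and the lowest adjusted p of a member was 0.365. Of 797 member differences recomputed under alternatives, 746 kept their sign, 51 changed it, and 26 of 47 members never did. What 4 libraries per subset can show is set by the intervals given with the differences. The count of genes called, 5, was 12 without a filter on low counts, 8 with at least 5 CPM in 4 libraries, 32 by DESeq2, 19 by limma voom with quality weights, 11 by edgeR with legacy=FALSE, 11 without the 3 libraries of lowest gene detection, 1 at an adjusted p under 0.01, and 1 to 5 when 1 library was left out. Cargo genes called numbered 0, and 2 without a filter, 2 with the stricter filter, 3 by DESeq2, 2 by limma voom, 2 with legacy=FALSE, 1 without the 3 libraries and 0 to 1 when 1 library was left out. Members at an unadjusted p under 0.05 numbered 6 by DESeq2 and without a filter, 2 without the 3 libraries, 3 by limma voom and 3 to 5 when 1 library was left out. Release genes at that level numbered 5 without a filter and with the replicate block, 3 by limma voom, 1 without the 3 libraries and 1 to 4 when 1 library was left out. The median log2 difference of the pump was -0.028 without the 3 libraries and -0.068 to 0.11 when 1 was left out, and that of the release genes -0.11 and -0.16 to -0.073. The cause of these shifts was not tested.

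With the replicate block, 13 genes were called (11 higher, 2 lower), 0 members and 2 cargo genes. With it the median was -0.11 for release genes and -0.04 for hydrolases, and Ctsh was at -0.10. The labels do not say that a number is shared. Same-numbered libraries correlated in their deviations at 0.0792 to 0.192, other pairs at -0.132 to 0.0344. In all 4 numbers a library correlated best with its own, a hint from the data and not from the design.

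Members that kept their sign still moved: over all alternatives Mcoln1 ran from 0.065 to 0.78, Atp6v0b from 0.12 to 0.50, Atp6v1c1 from -0.32 to -0.048, Unc13d from -0.45 to -0.17, Stxbp2 from -0.22 to -0.076 and Ctsc from -0.32 to -0.14, while Rab27a stayed between -0.34 and -0.25. Signs turned without the 3 libraries of lowest gene detection for Lamp1 (0.086), Ctsd (-0.016), Gusb (-0.042), Atp6v0a2 (-0.27), Atp6v0d1 (0.12), Atp6v1b2 (-0.058), Atp6v1h (-0.028) and Tcirg1 (-0.058). By limma voom they turned for Lamp1 (0.96), Ctsd (-0.0019), Atp6v0a2 (-0.018), Atp6v0d1 (0.0079), Atp6v1b2 (-0.0087), Atp6v1h (-0.040) and Rab7 (0.0022). When 1 library was left out, the ranges that crossed 0 were -0.97 to 0.51 for Lamp1, -0.28 to 0.043 for Lamp2, -0.53 to 0.20 for Hexa, -0.067 to 1.19 for Ctsh, -0.0075 to 0.019 for Ctsd, -0.0089 to 0.29 for Grn, -0.35 to 0.034 for Tpp1 and -0.029 to 0.096 for Cst7. Among pump genes they were -0.14 to 0.22 for Atp6v0a2, -0.18 to 0.033 for Atp6v0d1, -0.087 to 0.17 for Atp6v1a, -0.14 to 0.42 for Atp6v1b2, -0.14 to 0.032 for Atp6v1f, -0.046 to 0.26 for Atp6v1h and -0.026 to 0.27 for Tcirg1. Among release genes they were -0.18 to 0.13 for Rab7, -0.13 to 0.16 for Snap23, -0.31 to 0.0033 for Stx7, -0.23 to 0.098 for Sytl2 and -0.061 to 0.037 for Vti1b. The cause was not tested.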

Other observations

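Members with and without the core CACGTG in their promoter window had like differences between the subsets. Over the 12 tested members with it the median log2 difference was -0.03 (6 above 0 and 6 below), and over the 25 tested members with a window that lacks it the median was also -0.03 (11 above 0 and 14 below). Lamp1, which held the core 4 times, showed the wide spread between libraries described above. These are descriptions of chosen members, without a test. The summed level of all 52 members, the 5 untested ones included, was 8713 to 8900 CPM in CD11c+ and 9019 to 9172 CPM in CD11c- libraries. These sums did not overlap, whereas the score of the 47 tested members, which weights each of them alike, did. The most read members weigh most in the sums, and none of the members passed the test. How often sums over other genes split in this way was not examined.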
